A study of Capsicum annuum and Solanum lycopersicum with 125 samples.

Results

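The WRKY transcription factors of tomato were followed in stems of tomato (Solanum lycopersicum, cultivar M82) that had been grafted to sweet pepper (Capsicum annuum, cultivar California Wonder), grafted to tomato, or left ungrafted. The members were a fixed list of 60 gene IDs of the WRKY family, of which 55 were rows of the tomato count table used here. Of these 55 genes, 35 passed the filter on low counts and were tested, 17 had counts but failed the filter, and 3 (Solyc04g056360, Solyc06g048870 and Solyc10g007970) were listed at 0 in every library. The 5 listed IDs with no row were Solyc08g067340, Solyc03g113120, Solyc01g089960, Solyc07g065260 and Solyc08g062490. In all, 12176 of the 34688 genes of the table passed the same filter.

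The study asked how incompatible tomato-pepper grafts differ from compatible tomato self-grafts as the junction heals. Heterografted scions were tomato shoots on pepper rootstocks, and heterografted stocks were tomato rootstocks under pepper scions. Self-grafted scions and self-grafted stocks came from tomato on tomato, and ungrafted stems came from intact tomato plants of the same cultivar. A short piece of stem from one side of the junction was taken 7, 14 or 21 days after the graft was made (DAG, days after grafting). By the study's methods young or heterografted junctions were pulled apart by hand, while older established grafts were cut with a blade, so the way of sampling differed with graft type and age. Humidity domes were opened at 7 DAG and taken off at 14 DAG, so the time points also differ in the air around the plants.

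WRKY proteins are a large, mainly plant family of transcription factors named for a conserved run of amino acids in their DNA-binding domain. They bind W-box elements in promoters, act as activators or as repressors, and are known for roles in immunity, wounding, abiotic stress and senescence. Many WRKY genes are themselves switched on within the response they regulate. In Arabidopsis, WRKY70 is known for promoting salicylic acid responses while restraining jasmonic acid responses, and the study treats Solyc03g095770 as its putative tomato ortholog. That gene was picked by the study on these same samples, so its levels here are not independent evidence for the choice. The other members are given by ID alone, because the files used here pair the IDs with no names or roles. The study also lists WRKY75 among Arabidopsis cell death markers whose orthologs it found upregulated in heterografted tomato. That ortholog was not matched to a member here.

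The 61 tomato libraries fell into 15 groups of 3 to 5 replicates, which the study's methods describe as biological replicates. Libraries were sequenced from the 3' end of transcripts, and totals ran between 900 and 3136541 counts, with a median of 1824947. The 6 heterografted stock libraries of 14 and 21 DAG were far shallower than the other 55, which each held at least 952084 counts and between 11288 and 17351 detected genes. Levels are given below in CPM, counts per 1000000 counts of a library after scaling over those 55 libraries, and the shallow stocks are given as raw counts near the end. The libraries are bulk stem tissue, in which fewer cells of a type and less RNA per cell cannot be told apart.

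Zeros in this table need care. Among the 1925 values of the 35 tested WRKY genes outside the shallow stocks, 208 were 0, but only 1 was a count of 1, 5 were counts of 2 and 15 were counts of 3. In 24 cases, spread over 13 genes, a library was listed at 0 although its group had a median of at least 30 counts. Solyc05g007110, for example, was listed at 0 in 1 ungrafted stem of 7 DAG while the other 3 held 90.4, 95.1 and 99.1 CPM. A 0 is therefore written as "listed at 0", and beside each count of calls stands the number of called genes that had counts in every library of both groups. Where a whole group was listed at 0, the fold is a lower bound set against a floor of 3 counts over that group, which covers counting error only and not such dropped values.

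**Figure D1:**
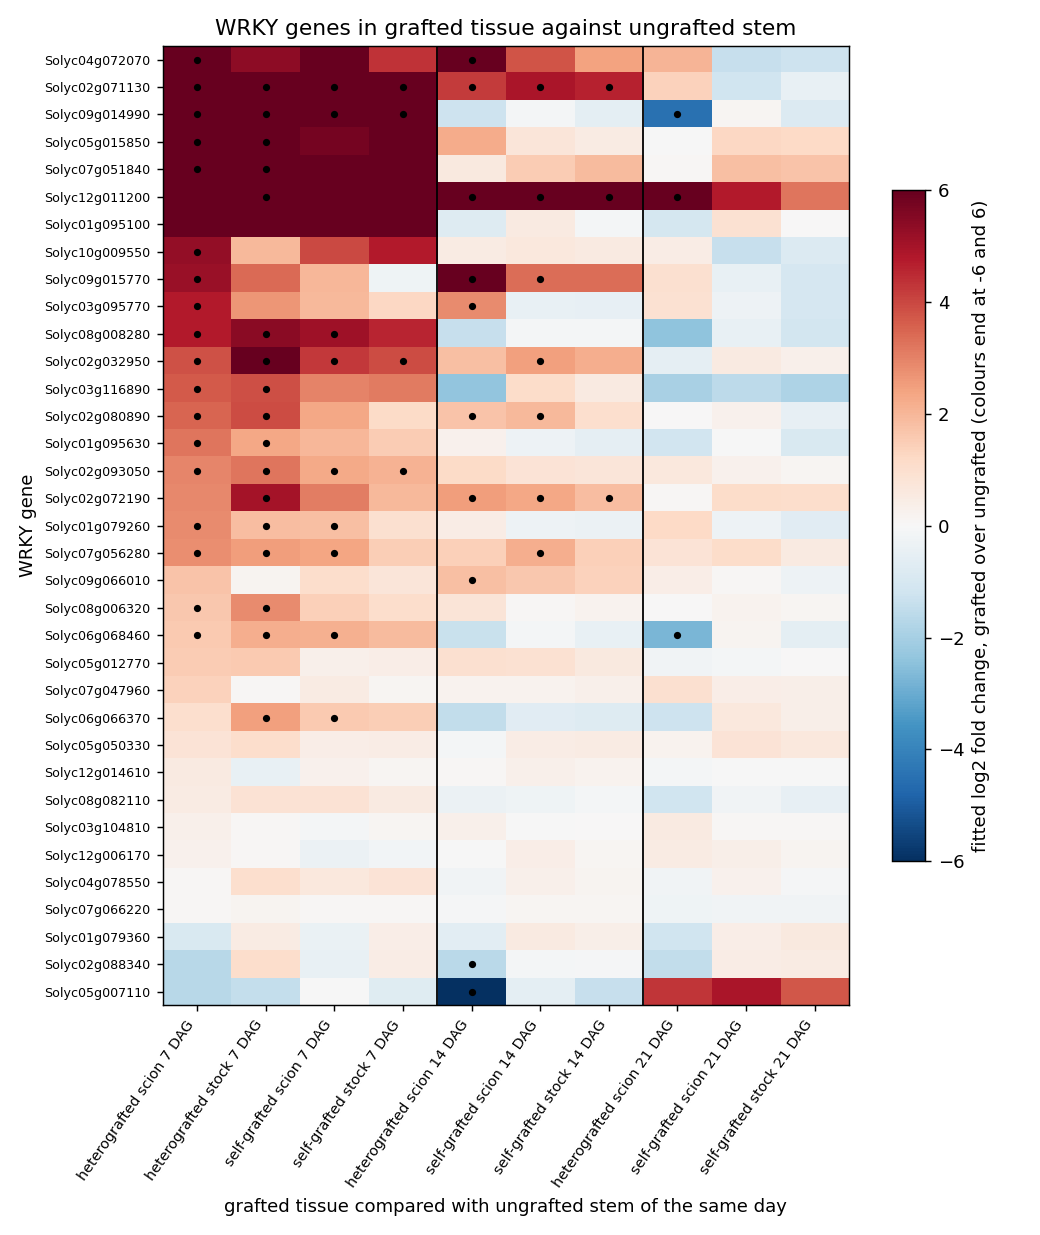
Fitted log2 fold change of the 35 tested WRKY genes (rows) in each grafted tissue against the ungrafted stem of the same day (columns, by days after grafting, the shallow stocks left out), as colour from blue (lower) to red (higher) that ends at -6 and 6, with a dot where the gene was called. Dots are densest in the heterografted scion and stock of 7 DAG, with 18 and 17 called genes, and the colour of a gene listed at 0 in a whole group is a fitted value and no bound.

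At 7 DAG many WRKY genes stood higher in grafted than in ungrafted stems. In heterografted scions 18 of 35 tested WRKY genes (51.4%) were called higher than in ungrafted stems, where a call needs an adjusted p under 0.05 and a log2 fold change beyond 1.5 in edgeR's quasi-likelihood test. Across all genes tested 5.08% were called higher, and no WRKY gene was called lower, against 3.08% of all genes. The median log2 fold change was 2.83 for the WRKY genes and 0.12 for all genes. Positive values were found for 32 of the 35 WRKY genes and for 57.6% of all genes. Of the 18 called genes, 4 had counts in every library of both groups and 5 were listed at 0 in all ungrafted stems. Heterografted scions of 7 DAG hold 497 of the 871 counts of Solyc04g072070 and 190 of the 655 counts of Solyc10g009550. These 2 genes passed the filter on low counts through this group, so a call on either here is a description.

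In heterografted stocks 17 WRKY genes were called higher and none lower than in ungrafted stems, while 9.46% of all genes were called higher and 10% lower. The median log2 fold change was 2.45 for the WRKY genes against 0.05 for all genes. Of the 17 called genes, 5 had counts in every library of both groups, and another 5 were listed at 0 in all ungrafted stems. Solyc12g011200, among the latter 5, passed the filter on low counts through this group, so its call is a description. In self-grafted scions 9 WRKY genes were called higher, against 1.67% of all genes, and 3 of these had counts throughout. In self-grafted stocks 4 were called higher, against 1.13% of all genes, and none of the 4 had counts throughout. No WRKY gene was called lower in either, against 0.263% of all genes in self-grafted scions and 0.0575% in self-grafted stocks. All these comparisons share the same 4 ungrafted stems.

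Summed over the family, WRKY transcripts came to 2043 ± 467 CPM in heterografted scions (SD, n = 5) and 2448 ± 662 CPM in heterografted stocks (SD, n = 4) of 7 DAG. The sums were 1544 ± 619 CPM in self-grafted scions (SD, n = 4), 1418 ± 466 CPM in self-grafted stocks (SD, n = 3) and 723 ± 110 CPM in ungrafted stems (SD, n = 4). The wide spread of the self-grafted scions comes with replicate 5, at 2436 CPM, while the other 3 libraries lay between 1008 and 1401 CPM. Without that library only 3 WRKY genes, in place of 9, were called higher in self-grafted scions. Without 1 ungrafted stem the same count was 5 (replicate 2), 5 (replicate 3) or 4 (replicate 5). The count for self-grafted stocks was 1 without its own replicate 5, and 2 without ungrafted replicate 2 or replicate 5. The shares of all genes called in these fits are not given here. Depth moved with the groups as well, since the ungrafted stems of 7 DAG held 1100645 to 1771240 counts and 20 to 27 detected WRKY genes, while heterografted scions held 1580499 to 2716097 counts and 36 to 43 detected WRKY genes. The part of depth in these counts was not tested.

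**Figure D2:**
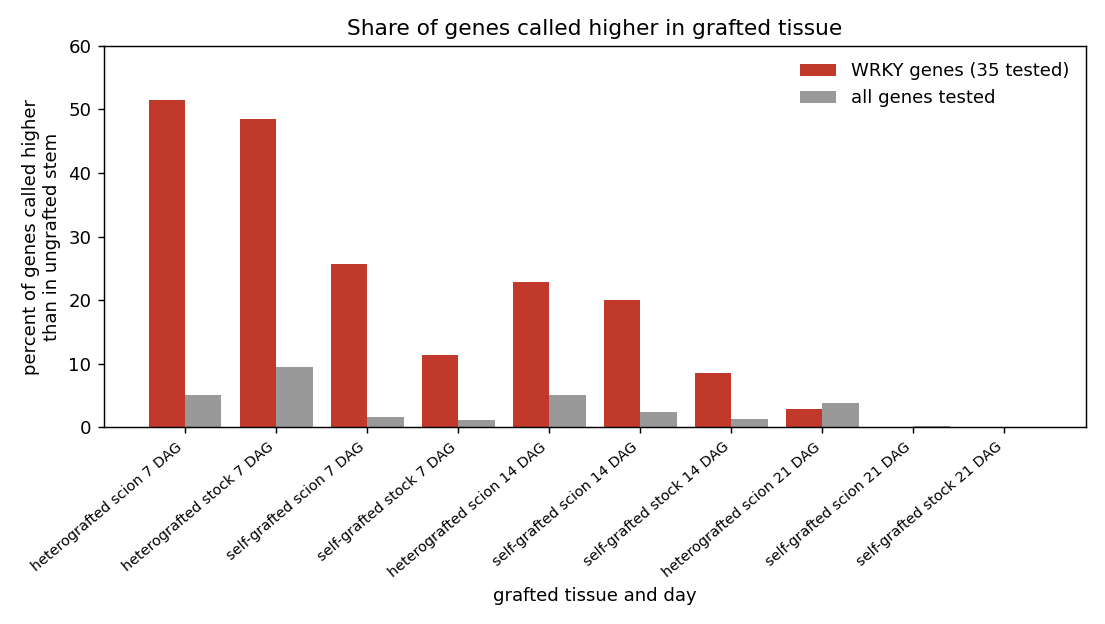
Percent of the 35 tested WRKY genes and percent of all tested genes that were called higher than in the ungrafted stem of the same day, for each grafted tissue and day (bars from 0). At 7 DAG 51.4% of WRKY genes were called higher in heterografted scions, against 5.08% of all genes.

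The members with the largest rises at 7 DAG were listed at 0 in all 4 ungrafted stems. Solyc02g071130 held 0, 17.3, 39.4, 45.3 and 56.9 CPM in heterografted scions and 65.0, 111, 71.1 and 79.6 CPM in heterografted stocks. It held 32.0, 35.9, 21.5 and 65.4 CPM in self-grafted scions and 20.7, 23.7 and 37.4 CPM in self-grafted stocks. Apart from 1 heterografted scion, every grafted library lay above every ungrafted one, and the gene was called higher in each grafted tissue. Against the floor it was at least 53.7-fold higher in heterografted scions (edgeR adjusted p = 0.00127) and at least 148-fold higher in heterografted stocks (edgeR adjusted p = 0.000106). It was at least 74.5-fold higher in self-grafted scions (edgeR adjusted p = 0.00654) and at least 46.1-fold higher in self-grafted stocks (edgeR adjusted p = 0.018), the last of which was lost without self-grafted stock replicate 5 (edgeR adjusted p = 0.065).

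Solyc09g014990 had the same shape with a wider spread. It held 5.09, 10.9, 41.3, 30.8 and 20.8 CPM in heterografted scions and 20.0, 108, 54.6 and 295 CPM in heterografted stocks. Self-grafted scions held 30.9, 13.1, 5.12 and 88.3 CPM and self-grafted stocks 9.12, 17.7 and 106 CPM, against a listed 0 in all 4 ungrafted stems. Every grafted library therefore had counts and no ungrafted one did. The adjusted p by edgeR was 0.0169 for heterografted scions, 0.000714 for heterografted stocks, 0.034 for self-grafted scions and 0.0388 for self-grafted stocks, with lower bounds of 36.7-fold, 222-fold, 72.7-fold and 66.6-fold in the same order. Both self-graft calls were lost without any 1 of the ungrafted stems or without replicate 5 of the self-grafted tissue (edgeR adjusted p between 0.0615 and 0.0994 in scions and between 0.0567 and 0.148 in stocks).

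Solyc05g015850 and Solyc07g051840 were also listed at 0 in all ungrafted stems of 7 DAG, and both were called higher on the 2 sides of the pepper graft and on neither side of the self-graft. Solyc05g015850 held 8.65, 11.3, 19.5, 34.8 and 20.4 CPM in heterografted scions and 22.5, 33.2, 38.2 and 85.4 CPM in heterografted stocks. In self-grafted scions it held 1.63, 1.71, 1.02 and 8.96 CPM, below all but 1 of the heterografted scions. Self-grafted stocks held 5.28, 0 and 18.4 CPM, below every heterografted stock. Its edgeR adjusted p against ungrafted stems was 0.00305 in heterografted scions and 0.000387 in heterografted stocks. Solyc07g051840 held 23.8, 38.2, 49.3 and 64.9 CPM in heterografted stocks, while heterografted scions held 10.2, 10.5, 11.3, 11 and 0 CPM. Self-grafted scions held 16.3, 0, 0 and 15.7 CPM of Solyc07g051840 and self-grafted stocks 14.9, 7.88 and 27.6 CPM. The heterografted scions thus did not stand above the self-grafts for Solyc07g051840. Its edgeR adjusted p was 0.00148 in heterografted stocks and 0.0249 in heterografted scions, and the scion call was lost without any 1 of the ungrafted stems (edgeR adjusted p between 0.0501 and 0.0584). A call on one graft type and not on the other is no test of the difference between them, and neither gene was called between heterografted and self-grafted tissue at 7 DAG.

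Solyc04g072070 was the member with the largest fitted rise in heterografted scions of 7 DAG. It held 4.58, 12, 119, 99.9 and 10.2 CPM there and was listed at 0 in all 4 ungrafted stems, with a lower bound of 80.0-fold (edgeR adjusted p = 0.00605). The heterografted scions thus ranged widely among themselves, with 2 libraries near 100 and 3 at about 12 CPM or below. Heterografted scions of 7, 14 and 21 DAG hold 497, 182 and 71 of the gene's 871 counts, so it passed the filter on low counts through the group in which it is high, and its values there are best read as a description. In heterografted stocks the gene was listed at 0, 7.56, 0 and 2.93 CPM and was not called. Solyc12g011200, the fifth in heterografted stocks, held 17.4, 37.0, 0 and 26.9 CPM there and was listed at 0 in all ungrafted stems (at least 38.0-fold higher, edgeR adjusted p = 0.0178). Heterografted stocks of 7 DAG hold 170 of the 739 counts of Solyc12g011200. It too passed the filter through the group in which it is high, so its values there are a description.

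Among members with counts in nearly every library the rises were smaller and better resolved. Solyc01g079260 held 222, 144, 139, 170.1 and 205 CPM in heterografted scions, against 37.0, 14.5, 21.0 and 22.7 CPM in ungrafted stems. The groups did not overlap, and the log2 fold change was 2.83 (SE 0.26, edgeR adjusted p = 1.31e-06). Solyc01g095630 held 57.5, 86.3, 140.1, 142 and 101 CPM in heterografted scions, against 13.5, 13.8, 11.4 and 5.46 CPM in ungrafted stems, a log2 fold change of 3.19 (SE 0.56, edgeR adjusted p = 0.000577). Both were picked for display after their values were seen. Groups without any overlap, with every heterografted scion above every ungrafted stem, were found for 21 of the 35 WRKY genes and for 13.7% of all genes.

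Of the self-graft calls not yet described, Solyc08g008280 held 60.2, 27.9, 0 and 109 CPM in self-grafted scions, against 4.69 CPM in 1 ungrafted stem and a listed 0 in the other 3 (log2 fold change 5.07, SE 1.30, edgeR adjusted p = 0.0406). Solyc07g056280 held 46.7, 48.5, 35.8 and 69.0 CPM in self-grafted scions, against 16.4, 0, 16.2 and 6.37 CPM in ungrafted stems (log2 fold change 2.35, SE 0.57, edgeR adjusted p = 0.028). Solyc02g093050 held 31.7, 31.9 and 55.7 CPM in self-grafted stocks, against 14.7, 11.7, 0 and 9.10 CPM in ungrafted stems (log2 fold change 2.08, SE 0.51, edgeR adjusted p = 0.0403). In the last 2 genes the self-grafted and ungrafted libraries did not overlap. None of these 3 calls was firm, since each was lost without replicate 5 of the self-grafted tissue and without ungrafted replicate 5, among others (edgeR adjusted p between 0.0521 and 0.128, between 0.0527 and 0.0954, and between 0.0635 and 0.164, in that order).

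Solyc03g095770, the putative WRKY70 ortholog, was high in heterografted scions at each time point. At 7 DAG it held 28.0, 101, 206, 180.0 and 46.3 CPM in heterografted scions and 17.4, 23.9, 34.5 and 23.9 CPM in heterografted stocks. Self-grafted scions held 4.34, 5.70, 0 and 47.9 CPM, self-grafted stocks 8.64, 7.49 and 12.9 CPM, and ungrafted stems 10.6, 3.45, 0 and 0 CPM. Every library of the pepper graft lay above every ungrafted stem, and the only self-grafted library within the range of the heterografted scions was replicate 5 of the self-grafted scions. Against ungrafted stems the gene was called higher in heterografted scions (log2 fold change 4.78, SE 1.05, edgeR adjusted p = 0.0037). In heterografted stocks the log2 fold change was 2.64 with an edgeR adjusted p of 0.0543, which passed without ungrafted replicate 1 (4.16, edgeR adjusted p = 0.0209) and in DESeq2 (2.85, adjusted p = 0.0194).

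Set against self-grafted scions directly, Solyc03g095770 had a log2 fold change of 2.85 in heterografted scions of 7 DAG (SE 0.90, edgeR adjusted p = 0.0713), which missed the threshold. Without self-grafted scion replicate 5 the log2 fold change was 4.88 (edgeR adjusted p = 0.00608), so that library decided the call. At 14 DAG the gene held 101, 47.1, 57.2 and 62.2 CPM in heterografted scions, against 5.18, 9.27, 8.70 and 4.19 CPM in self-grafted scions. These groups did not overlap, and the log2 fold change was 3.25 (SE 0.68, edgeR adjusted p = 0.00245).

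Ungrafted stems of 14 DAG held 6.06, 5.42, 14.6, 16.9 and 4.62 CPM of Solyc03g095770, and the heterografted scions were also called higher than these (log2 fold change 2.83, SE 0.62, edgeR adjusted p = 0.00282). At 21 DAG the gene held 72.0, 50.7, 63.8 and 90.7 CPM in heterografted scions, 18.3, 19.1, 36.1 and 39.4 CPM in self-grafted scions and 27.5, 71.2, 18.9 and 24.6 CPM in ungrafted stems. The heterografted scions again lay above all self-grafted scions, but the ungrafted stems overlapped them through replicate 2. Neither comparison of 21 DAG passed (against self-grafted scions, log2 fold change 1.24, SE 0.42, edgeR adjusted p = 0.058; against ungrafted stems, 0.91, edgeR adjusted p = 0.162). Without ungrafted replicate 2 the log2 fold change against ungrafted stems was 1.52 (edgeR adjusted p = 0.0166), which would pass.

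The mean level of Solyc03g095770 over the 3 time points was 112 ± 78.9, 67.0 ± 23.7 and 69.3 ± 16.8 CPM in heterografted scions (SD, n = 5, 4 and 4). In ungrafted stems it was 3.5 ± 4.98, 9.51 ± 5.76 and 35.6 ± 24.1 CPM (SD, n = 4, 5 and 4). The levels of heterografted scions overlapped between days, while the ungrafted stems of 21 DAG all lay above those of 7 DAG. The difference of heterografted from self-grafted scions was not shown to change with time (14 minus 7 DAG, log2 difference 0.41, edgeR adjusted p = 0.976; 21 minus 7 DAG, -1.57, edgeR adjusted p = 0.382). Without self-grafted scion replicate 5 of 7 DAG these were -1.66 (edgeR adjusted p = 0.554) and -3.60 (edgeR adjusted p = 0.0157).

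**Figure D3:**
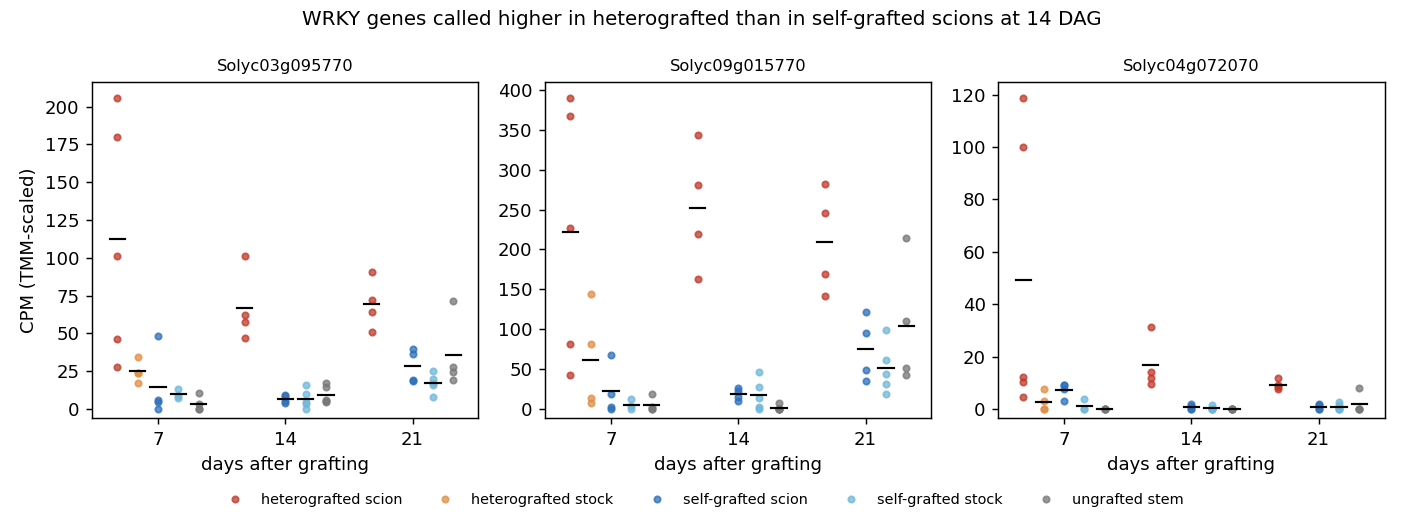
CPM of Solyc03g095770, Solyc09g015770 and Solyc04g072070 in each library (points) with the group mean (line), by group and days after grafting. At 14 DAG every heterografted scion lay above every self-grafted scion in all 3 genes. Solyc04g072070 passed the filter on low counts through the heterografted scions.

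The direct comparison of heterografted with self-grafted scions found few members. At 7 DAG no WRKY gene was called in either direction by edgeR, against 1.07% of all genes higher and 1.3% lower. At an unadjusted p under 0.05, 6 WRKY genes were higher and 1 lower, against 7.87% and 9.3% of all genes, and DESeq2's Wald test called 1 WRKY gene and 3.51% of all genes. Leaving out self-grafted scion replicate 5 gave 2 calls and leaving out replicate 2 gave 1. The median log2 fold change was 0.27 for the WRKY genes against 0.06 for all genes. Solyc01g079260 had an edgeR adjusted p of 0.0123, but its log2 fold change of 1.01 was under the threshold.

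At 14 DAG 3 WRKY genes were called higher in heterografted than in self-grafted scions (2.19% of all genes) and 1 lower (3.44% of all genes), and 3 of the 4 had counts in every library. Besides Solyc03g095770, the higher genes were Solyc09g015770 and Solyc04g072070. Solyc04g072070 passed the filter on low counts through the heterografted scions, so its call among the 3 is a description. Solyc09g015770 held 343, 164, 220 and 281 CPM in heterografted scions, against 21.9, 26.8, 14.4 and 9.32 CPM in self-grafted scions. The lowest heterografted scion was thus well above the highest self-grafted one (log2 fold change 3.79, SE 0.83, edgeR adjusted p = 0.00327). Ungrafted stems of 14 DAG held 6.87 CPM in 1 library and were listed at 0 in the other 4 (log2 fold change 7.13, SE 0.98, edgeR adjusted p = 6.38e-05).

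Solyc09g015770 was already high at 7 DAG, at 42.8, 227, 368, 390.2 and 81.4 CPM in heterografted scions, against 18.2, 0, 0 and 2.73 CPM in ungrafted stems (log2 fold change 5.20, SE 1.37, edgeR adjusted p = 0.0126). Self-grafted scions of 7 DAG held 2.71, 18.2, 0 and 67.7 CPM, and the log2 fold change against them was 3.23 with an edgeR adjusted p of 0.129. At 21 DAG the gene held 142, 169, 245 and 283 CPM in heterografted scions, 48.5, 35.4, 94.7 and 122 CPM in self-grafted scions and 109.9, 215, 42.0 and 51.7 CPM in ungrafted stems. The heterografted scions still lay above every self-grafted scion, but the log2 fold change of 1.42 had an edgeR adjusted p of 0.101. Self-grafted scion replicate 5 of 7 DAG, which decided the call of Solyc03g095770, was also the highest of its group for this gene.

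Solyc04g072070 held 31.1, 9.56, 14.1 and 11.7 CPM in heterografted scions of 14 DAG, against 0, 2.06, 1.14 and 0 CPM in self-grafted scions (log2 fold change 4.22, SE 1.03, edgeR adjusted p = 0.00973). It was listed at 0 in all 5 ungrafted stems of 14 DAG, a lower bound of 50.4-fold (edgeR adjusted p = 0.000791). The gene is a low one, so a few counts carry the self-grafted values. It passed the filter on low counts through the heterografted scions, which hold 497, 182 and 71 of its 871 counts at 7, 14 and 21 DAG. Its values and tests at 14 and 21 DAG are therefore best read as a description too. At 21 DAG heterografted scions held 7.50, 8.44, 9.18 and 11.7 CPM, against 1.71, 1.36, 0 and 0 CPM in self-grafted scions, with an edgeR adjusted p of 0.147.

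The 1 member called lower at 14 DAG rested on single libraries. Solyc03g116890 held 9.49, 15.8, 10.4 and 21.8 CPM in heterografted scions, against 447, 55.6, 43.5 and 83.9 CPM in self-grafted scions (log2 fold change -3.45, SE 1.2, edgeR adjusted p = 0.0463). The groups did not overlap, yet without self-grafted scion replicate 1, which held 447 CPM, the log2 fold change was -2.09 and the edgeR adjusted p 0.229. It was also lost without self-grafted scion replicate 5 or any 1 heterografted scion (edgeR adjusted p between 0.0571 and 0.106).

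The stock side of the pepper graft was compared with self-grafted stocks at 7 DAG, and there 3 WRKY genes were called higher and none lower, while 2.48% of all genes were called higher and 7.99% lower. All 3 had counts in every library of both groups. The median log2 fold change was 0.85 for the WRKY genes and -0.07 for all genes. Solyc02g032950 held 74.0, 150.4, 122 and 136 CPM in heterografted stocks, against 17.3, 20.1 and 39.2 CPM in self-grafted stocks. Every heterografted stock lay above every self-grafted one (log2 fold change 2.25, SE 0.48, edgeR adjusted p = 0.00254).

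On the scion side Solyc02g032950 did not stand apart between graft types. Heterografted scions of 7 DAG held 15.8, 15.4, 33.5, 29.6 and 29.1 CPM and self-grafted scions 23.9, 31.4, 26.6 and 46.2 CPM, so the groups overlapped. The effect of the pepper graft was larger in the stock than in the scion, by a log2 difference of 2.66 (SE 0.62, edgeR adjusted p = 0.00792) in a test of the difference itself. Ungrafted stems held 3.52, 2.07, 0 and 0 CPM, and each grafted tissue of 7 DAG was called higher than these. The log2 fold change was 3.84 in heterografted scions (SE 0.57, edgeR adjusted p = 0.000132), 6.16 in heterografted stocks (SE 0.58, edgeR adjusted p = 3.22e-07), 4.25 in self-grafted scions (SE 0.58, edgeR adjusted p = 0.000747) and 3.91 in self-grafted stocks (SE 0.60, edgeR adjusted p = 0.00325).

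Solyc08g006320 had the same order. It held 192, 357, 331 and 263 CPM in heterografted stocks, against 59.5, 75.3 and 120.0 CPM in self-grafted stocks (log2 fold change 1.76, SE 0.30, edgeR adjusted p = 0.00038). Heterografted scions held 105, 130.2, 144, 137 and 119 CPM and self-grafted scions 116, 96.3, 59.4 and 159 CPM, which overlapped. The log2 difference between stock and scion was 1.55 (SE 0.39, edgeR adjusted p = 0.0127). That value is close to the threshold of 1.5, and it was between 1.30 and 1.49 without self-grafted scion replicate 5, self-grafted stock replicate 2 or 3, heterografted scion replicate 1, or heterografted stock replicate 2 or 3. Ungrafted stems held 52.2, 37.2, 34.3 and 35.5 CPM, below every library of the pepper graft. Solyc02g032950 and Solyc08g006320 were the 2 WRKY genes called in the comparison of stock with scion effects, against 2.22% of all genes called in that direction and 6.04% in the other.

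Solyc02g080890 was the third gene called on the stock side. It held 20.0, 50.4, 30.2 and 109 CPM in heterografted stocks, against 6.72, 7.09 and 9.80 CPM in self-grafted stocks (log2 fold change 2.74, SE 0.86, edgeR adjusted p = 0.0299). The groups did not overlap, but the call was lost (edgeR adjusted p between 0.0713 and 0.111) without self-grafted stock replicate 2, 3 or 5 or without heterografted stock replicate 5. Solyc03g095770 had a log2 fold change of 1.38 between the 2 kinds of stock (edgeR adjusted p = 0.403).

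**Figure D4:**
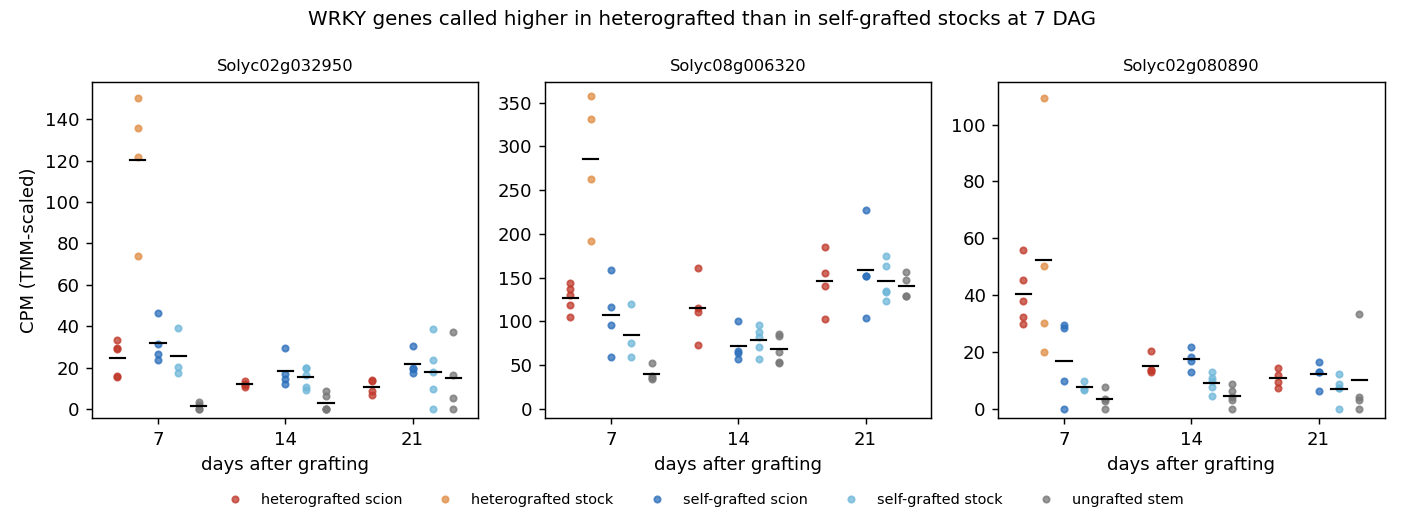
CPM of Solyc02g032950, Solyc08g006320 and Solyc02g080890 in each library (points) with the group mean (line), by group and days after grafting. At 7 DAG every heterografted stock lay above every self-grafted stock in all 3 genes, while the scions of both graft types overlapped in the first 2.

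Within self-grafts the 2 sides of the junction were not told apart by any member. Between self-grafted scions and self-grafted stocks edgeR called 0 WRKY genes at 7, 14 and 21 DAG, and it called 0% of all genes. The test took scions and stocks as unpaired, though libraries of the same number may come from the same plant. At an unadjusted p under 0.05 there were 1 higher and 1 lower WRKY gene at 7 DAG, 1 higher and 0 lower at 14 DAG, and 0 at 21 DAG. Of all genes, 3.33% passed that level higher and 4.17% lower at 7 DAG. The shares of all genes were 1.82% higher and 1.95% lower for 14 DAG, with 0.895% higher and 0.6% lower for 21 DAG. DESeq2 called 0 WRKY genes at each time, and 0.287%, 0.0246% and 0.0329% of all genes at 7, 14 and 21 DAG. The WRKY log2 fold changes ran between -1.11 and 2.44 at 7 DAG, between -0.37 and 1.33 at 14 DAG and between -0.73 and 1.53 at 21 DAG.

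By 14 DAG fewer members stood above ungrafted stems. In heterografted scions 8 WRKY genes were called higher (5.15% of all genes) and 2 lower (4.55% of all genes), and 2 of these 10 had counts in every library. In self-grafted scions 7 were called higher and none lower, against 2.46% and 0.862% of all genes, and 1 had counts throughout. In self-grafted stocks 3 were called higher and none lower, against 1.29% and 0.304% of all genes, and none had counts throughout. Without replicate 4 of the self-grafted stocks that last count was 1. The WRKY medians of 0.31, 0.43 and 0.33 on the log2 scale lay nearer to the medians of all genes, 0.11, 0.06 and 0.06, than at 7 DAG. The summed WRKY level was 1404 ± 156 CPM in heterografted scions, 1426 ± 278 CPM in self-grafted scions, 1239 ± 304 CPM in self-grafted stocks and 1143 ± 192 CPM in ungrafted stems (SD, n = 4, 4, 5 and 5).

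Solyc02g071130, which was called higher in each grafted tissue of 7 DAG, was still called higher in all 3 grafted tissues of 14 DAG that could be tested. It held 8.73, 10.2, 11.2 and 15.5 CPM in heterografted scions, 15.0, 17.0, 18.9 and 22.8 CPM in self-grafted scions and 11.8, 23.0, 10.8, 14.6 and 16.8 CPM in self-grafted stocks. Ungrafted stems held 3.52 CPM in 1 library and were listed at 0 in the other 4, so no grafted library overlapped them. The log2 fold change was 4.17 in heterografted scions (SE 0.72, edgeR adjusted p = 0.000457), 4.89 in self-grafted scions (SE 0.72, edgeR adjusted p = 0.000436) and 4.61 in self-grafted stocks (SE 0.71, edgeR adjusted p = 0.00161). At this time point the gene was not called between the 2 kinds of scion.

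Solyc12g011200 had no counts in any ungrafted stem of the 3 time points. At 14 DAG it held 10.2, 13.5, 9.12 and 12 CPM in heterografted scions, 0, 21.1, 16.3 and 12.6 CPM in self-grafted scions and 4.84, 7.97, 0, 14.2 and 18.7 CPM in self-grafted stocks. It was called higher in each, with lower bounds of 35.4-fold, 41.5-fold and 26.3-fold and edgeR adjusted p-values of 0.00534, 0.00988 and 0.0267. At 21 DAG heterografted scions held 12, 10.7, 5.68 and 8.42 CPM (at least 18.4-fold higher than ungrafted stems, edgeR adjusted p = 0.0484), a call that was lost whichever library was left out (edgeR adjusted p between 0.0651 and 0.103). The self-grafted stock call of 14 DAG was lost without replicate 4 or 5 of that group (edgeR adjusted p = 0.0568 and 0.0612). Self-grafted scions of 21 DAG held 8.72 CPM in 1 library and were listed at 0 in 3.

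Of the other self-graft calls of 14 DAG, Solyc02g072190 held 10.9, 11.3, 15.5 and 8.85 CPM in self-grafted scions, against 4.44, 2.26, 1.56, 0 and 3.08 CPM in ungrafted stems (log2 fold change 2.31, SE 0.51, edgeR adjusted p = 0.00744). Self-grafted stocks held 9.13, 7.51, 4.68, 9.72 and 12.5 CPM (log2 fold change 1.86, edgeR adjusted p = 0.0366), a call lost in 7 of the settings that left out 1 library, among them each self-grafted stock but replicate 3 (edgeR adjusted p between 0.0561 and 0.0894). Every self-grafted library lay above every ungrafted one. Solyc09g015770 and Solyc02g032950 were also called higher in self-grafted scions, with log2 fold changes of 3.34 (edgeR adjusted p = 0.0436) and 2.45 (edgeR adjusted p = 0.0327). The first was lost without any 1 self-grafted scion or any 1 ungrafted stem but replicate 1 (edgeR adjusted p between 0.0573 and 0.111), and the second without self-grafted scion replicate 2, 3 or 5 (edgeR adjusted p between 0.0501 and 0.111).

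The 2 members called lower in heterografted scions of 14 DAG differ in how firm they are. Solyc02g088340 held 17.5, 13.2, 19.9 and 16.1 CPM in heterografted scions, against 35.5, 63.7, 57.2, 51.4 and 45.4 CPM in ungrafted stems (log2 fold change -1.60, SE 0.29, edgeR adjusted p = 0.000633). The groups did not overlap, but with DESeq2 size factors computed with the shallow stocks the log2 fold change was -1.16, under the threshold. Solyc05g007110 was listed at 0 in 3 heterografted scions and at 1.26 CPM in the fourth, against 42.4, 66.9, 59.8, 0 and 0 CPM in ungrafted stems (edgeR adjusted p = 0.0364). The groups overlapped at 0, and the call was lost without any 1 heterografted scion or ungrafted replicate 1, 2 or 3 (edgeR adjusted p between 0.0528 and 0.0945) and in DESeq2 (adjusted p = 0.11).

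At 21 DAG the heterografted scions stood out from self-grafted scions by lower rather than higher WRKY levels. They did not stand out in this way from ungrafted stems, where the WRKY median log2 fold change was 0.01, against 0.04 for all genes. Against self-grafted scions 5 WRKY genes were called lower and 1 higher, while 4.6% of all genes were called lower and 3.53% higher. Of these 6 genes, 5 had counts in every library of both groups. The median log2 fold change was -0.32 for the WRKY genes against 0.03 for all genes. Every heterografted scion lay below every self-grafted scion for 10 of the 35 WRKY genes and above for 5, against 16.2% and 19.9% of all genes.

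Solyc06g068460 was evenly low in heterografted scions of 21 DAG. It held 37.5, 32.1, 38.5 and 29.9 CPM there, against 191, 118, 348 and 344 CPM in self-grafted scions (log2 fold change -2.91, SE 0.73, edgeR adjusted p = 0.0118). Ungrafted stems held 244, 382, 116 and 151 CPM (log2 fold change -2.73, SE 0.72, edgeR adjusted p = 0.0169), a call that moved to the threshold (edgeR adjusted p between 0.05 and 0.0536) without ungrafted replicate 2 or heterografted scion replicate 2 or 3. All 4 heterografted scions lay below every other library of that day outside the shallow stocks. At 7 DAG the order was not of this kind, with 64.6, 90.4, 169, 114 and 96.7 CPM in heterografted scions and 143, 83.2, 44.0 and 332 CPM in self-grafted scions. The change of the effect between 7 and 21 DAG passed its own test (log2 difference -2.36, SE 0.78, edgeR adjusted p = 0.0483), but it was lost in 14 of the 17 fits that left out 1 library (edgeR adjusted p between 0.052 and 0.102).

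Solyc09g014990 was listed at 0, 3.38, 2.19 and 0 CPM in heterografted scions of 21 DAG, against 22.8, 23.9, 59.2 and 38.8 CPM in self-grafted scions (log2 fold change -4.63, SE 0.87, edgeR adjusted p = 0.00244). Ungrafted stems held 9.85, 92.8, 14.6 and 14.8 CPM (log2 fold change -4.50, SE 0.87, edgeR adjusted p = 0.00321). This is the gene that was listed at 0 in every ungrafted stem of 7 DAG and had counts in every grafted one. Between 7 and 21 DAG its heterograft effect in the scion changed by a log2 difference of -3.89 (SE 1.21, edgeR adjusted p = 0.0348), a call lost in 9 of the 17 fits that left out 1 library (edgeR adjusted p between 0.0502 and 0.0788).

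Solyc06g066370 and Solyc02g088340 were also called lower in heterografted than in self-grafted scions. Solyc06g066370 held 75, 50.7, 55.1 and 28.1 CPM in heterografted scions, against 215, 119, 216 and 192 CPM in self-grafted scions (log2 fold change -1.89, SE 0.35, edgeR adjusted p = 0.00178). Solyc02g088340 held 26.3, 15.8, 28.9 and 28.1 CPM in heterografted scions, against 123, 96.8, 53.6 and 91.7 CPM in self-grafted scions (log2 fold change -1.93, SE 0.39, edgeR adjusted p = 0.00329). In both genes the groups did not overlap. Ungrafted stems of 21 DAG held 96.5, 214, 94.4 and 71.5 CPM of Solyc06g066370 and 82.5, 82.3, 68.9 and 32.9 CPM of Solyc02g088340, and neither gene was called against these.

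Solyc01g079260 and Solyc01g079360 have neighbouring ID numbers and were called in opposite directions at 21 DAG. Solyc01g079260 held 78.8, 67.6, 77.4 and 63.6 CPM in heterografted scions, against 24.5, 13.0, 27.4 and 31.8 CPM in self-grafted scions (log2 fold change 1.51, SE 0.39, edgeR adjusted p = 0.0141). Solyc01g079360 held 13.5, 15.8, 21.9 and 20.1 CPM in heterografted scions, against 72.4, 79.1, 23.7 and 36.7 CPM in self-grafted scions (log2 fold change -1.61, SE 0.36, edgeR adjusted p = 0.00701). Neither gene's groups overlapped. Both values lie close to the threshold: without self-grafted scion replicate 3 they were 1.30 (edgeR adjusted p = 0.0558) and -1.35, and leaving out heterografted scion replicate 1 or replicate 3 (1.46 and 1.47) or self-grafted scion replicate 2 (-1.43) also took one or the other below it.

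**Figure D5:**
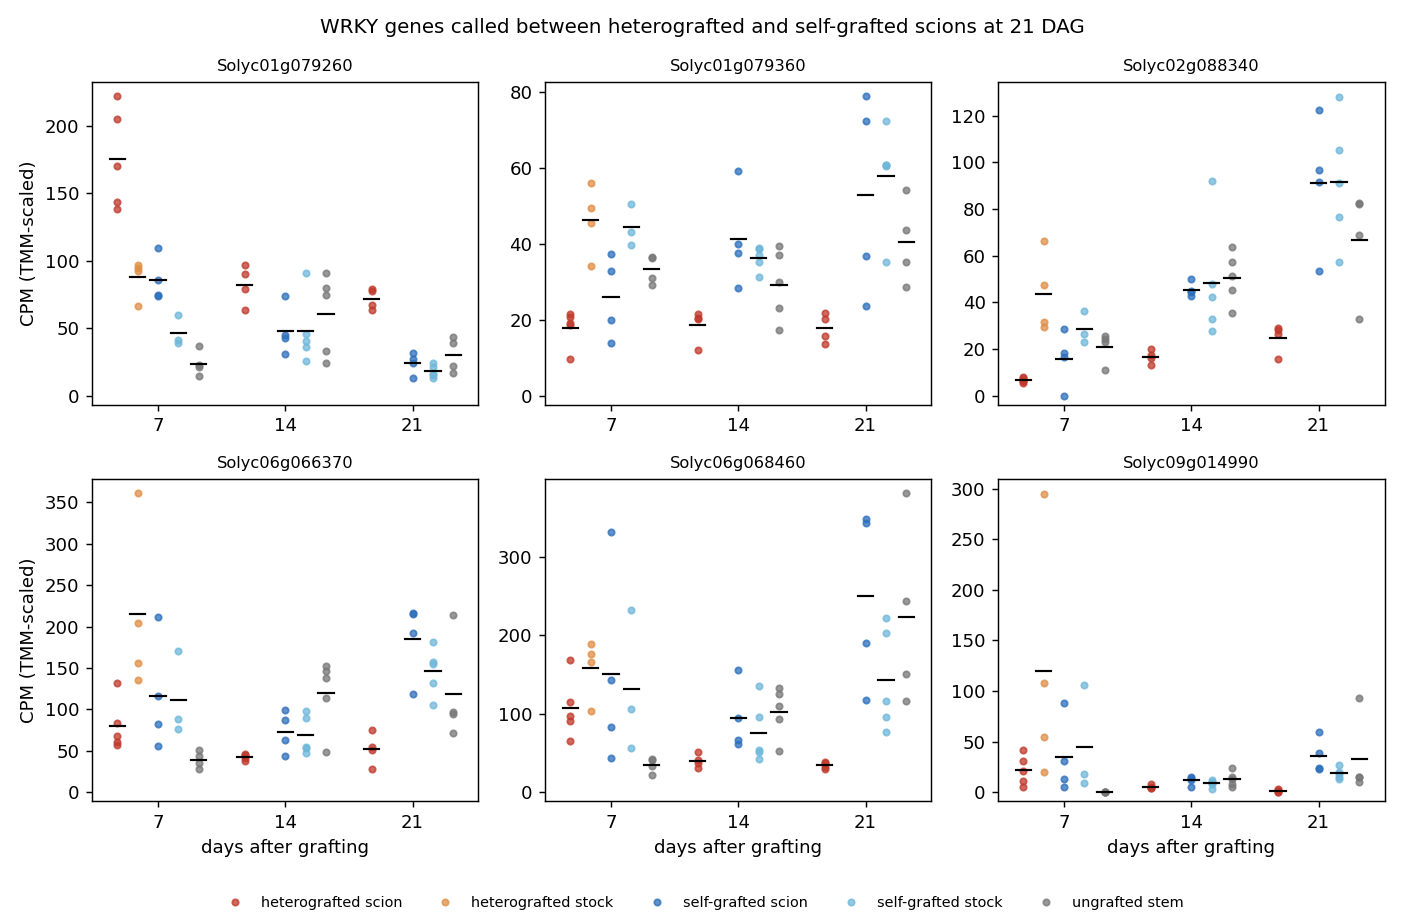
CPM of the 6 WRKY genes called between heterografted and self-grafted scions at 21 DAG, in each library (points) with the group mean (line), by group and days after grafting. The heterografted scions of 21 DAG held 29.9 to 38.5 CPM of Solyc06g068460, below all self-grafted scions and ungrafted stems of that day.

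Against ungrafted stems of 21 DAG, 1 WRKY gene was called higher in heterografted scions (3.88% of all genes) and 2 lower (3.56% of all genes), and without heterografted scion replicate 2 a single call was left of the 3. In self-grafted scions edgeR called 0 WRKY genes, against 0.14% of all genes called higher and 0.0164% lower. At an unadjusted p under 0.05, 6 WRKY genes were higher and 0 lower there, against 4.5% and 2.8% of all genes, and DESeq2 called 0 WRKY genes and 0.402% of all genes. In self-grafted stocks edgeR called 0 WRKY genes, against 0.0657% and 0.0246% of all genes. At an unadjusted p under 0.05, 2 were higher and 2 lower in these stocks, against 6.66% and 5% of all genes, and DESeq2 called 1 WRKY gene and 1.08% of all genes. The summed WRKY level was 1426 ± 65.5 CPM in heterografted scions, 1838 ± 335 CPM in self-grafted scions, 1443 ± 131 CPM in self-grafted stocks and 1606 ± 694 CPM in ungrafted stems (SD, n = 4, 4, 5 and 4). The spread of the ungrafted stems comes with replicate 2, at 2627 CPM, while the other 3 lay between 1146 and 1455 CPM.

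The heterograft effect in the scion was tested for change with time in one fit of all libraries. Between 7 and 14 DAG edgeR called 0 WRKY genes, against 0.197% of all genes called higher and 0.337% lower. At an unadjusted p under 0.05, 0 were higher and 2 lower, against 4.99% and 5.72% of all genes, and DESeq2 called 0 WRKY genes and 1.46% of all genes. Between 7 and 21 DAG 3 were called lower and none higher, against 2.19% and 3.39% of all genes. The third gene, with Solyc06g068460 and Solyc09g014990, was Solyc01g095630. It held 63.8, 49.0, 59.9 and 21.1 CPM in heterografted scions of 21 DAG, against 78.7, 45.0, 161 and 119 CPM in self-grafted scions, while at 7 DAG self-grafted scions held 23.3, 34.8, 12.3 and 109 CPM (log2 difference -2.27, SE 0.70, edgeR adjusted p = 0.0336, lost in 9 of the 17 fits without 1 library). This count of 3 is not firm: it was 0 without self-grafted scion replicate 1, 2 or 3 or heterografted scion replicate 3 or 4 of 7 DAG, or without replicate 4 of either scion of 21 DAG, and 6 without self-grafted scion replicate 5 of 7 DAG.

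The ungrafted stems themselves changed over the same days, in comparisons added after the values were seen. Between 7 and 14 DAG 5 WRKY genes were called higher and none lower at the later time, against 3.24% and 0.871% of all genes. Between 7 and 21 DAG 18 were called higher and 1 lower, against 10.4% and 8.54% of all genes, and 5 of these 19 had counts in every library of both days. The WRKY median log2 fold change was 0.77 at 14 DAG and 1.62 at 21 DAG, against 0.10 and 0.15 for all genes. Solyc08g006320 held 129, 157, 129 and 148 CPM in ungrafted stems of 21 DAG, against 52.2, 37.2, 34.3 and 35.5 CPM at 7 DAG, a log2 fold change of 1.83 (SE 0.27, edgeR adjusted p = 7.68e-07). Solyc06g068460 held 244, 382, 116 and 151 CPM at 21 DAG, against 22.3, 40.7, 42.9 and 33.7 CPM at 7 DAG, a log2 fold change of 2.71 (SE 0.60, edgeR adjusted p = 0.000344). In both genes every ungrafted stem of 21 DAG lay above every one of 7 DAG.

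The difference between grafted and ungrafted stems was compared between days as well, and the part of either group in a change was not tested. The response of heterografted scions relative to ungrafted stems was called lower at 14 than at 7 DAG for 8 WRKY genes (1.93% of all genes) and lower at 21 than at 7 DAG for 22 (5.73% of all genes), and higher for none (0.222% and 4.45% of all genes). For self-grafted scions 4 were lower at 14 DAG (0.723% of all genes) and 4 at 21 DAG (1.09% of all genes), and none was higher (0.222% and 0.23% of all genes). Without ungrafted replicate 2 of 21 DAG the count of 22 was 8, and the self-grafted count of 4 was 0. These comparisons share the ungrafted stems of 7 DAG, so their counts are not separate findings.

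Of the 17 members that had counts but failed the filter, 2 were seen nearly only in heterografted scions, and they are given as raw counts because they are too sparse for the main test. Solyc08g067360 held 0, 35, 35, 73 and 13 counts in heterografted scions of 7 DAG, 34, 29, 9 and 23 in those of 14 DAG and 20, 23, 29 and 0 in those of 21 DAG. It held 4 counts over the 4 heterografted stocks of 7 DAG and was listed at 0 in every other library. Heterografted tissue was joined to pepper, and the study cites earlier work in which a small share of reads mapped to the wrong species. The part of pepper reads in such low counts was not tested.

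Solyc04g051690 held 5, 36, 37, 28 and 0 counts in heterografted scions of 7 DAG, 35, 37, 33 and 42 in those of 14 DAG and 29, 26, 17 and 9 in those of 21 DAG. Elsewhere it held 3 counts in 1 heterografted stock of 7 DAG, 3 and 10 counts in 1 ungrafted stem each of 14 and 21 DAG, and 7 counts in 1 self-grafted stock of 21 DAG. Solyc12g096350 held 0, 25, 24, 13 and 0 counts in heterografted scions of 7 DAG and 11, 19, 10 and 24 at 14 DAG, but also 10 and 17 counts in 2 heterografted stocks of 7 DAG and 4 to 7 counts in 4 other libraries of those days. At 21 DAG it held 6, 0, 19 and 0 counts in heterografted scions, against 0, 5, 8 and 0 in self-grafted scions. These 3 genes were singled out after their values were seen. On the stock side, Solyc02g094270 held 0, 43, 17 and 69 counts and Solyc06g070990 held 0, 75, 0 and 24 counts in heterografted stocks of 7 DAG.

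The heterografted stocks of 14 and 21 DAG gave little tomato RNA sequence. The 3 libraries of 14 DAG held 900, 912 and 1509 counts in all and 0 WRKY counts, so no level could be tested there. The 3 libraries of 21 DAG held 226553, 32731 and 267066 counts, of which 469, 95 and 243 fell on 6 to 13 WRKY genes. In these, 20 of 35 WRKY genes were called lower than in ungrafted stems (57.1%), against 54.9% of all genes, so the WRKY share was close to that of all genes. Against self-grafted stocks 18 were called lower, against 55.4% of all genes. Over all genes the median was -3.74 on the log2 scale against ungrafted stems, which is the shift that single values have to be read against. The parts of depth and of pepper reads in these values were not tested.

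A few members kept counts in these stocks of 21 DAG. Solyc06g066370 held 124, 47 and 78 counts, Solyc02g072190 held 55, 14 and 35, and Solyc02g080890 held 36, 11 and 41. The last 2 were the 2 WRKY genes called higher than in ungrafted stems (5.71% of those tested, against 5.35% of all genes). The same 2 were called higher than in self-grafted stocks (5.71%, against 4.39% of all genes). These shares are close to those of all genes, so the 2 calls describe single genes and not the family. Solyc02g072190 had a log2 fold change of 3.12 against ungrafted stems (SE 0.32, edgeR adjusted p = 1.26e-07) and of 2.04 against self-grafted stocks (SE 0.29, edgeR adjusted p = 6.01e-06). Solyc02g080890 had log2 fold changes of 3.09 (SE 0.91, edgeR adjusted p = 0.00625) and 3.56 (SE 0.86, edgeR adjusted p = 0.00146) in the same comparisons. By contrast Solyc08g006320, with 909 counts over the ungrafted stems of that day, was listed at 0 in all 3 stocks, at least 44.9-fold lower by the floor. Solyc12g014610 was listed at 0 as well, at least 27.3-fold lower. Solyc03g095770 was also listed at 0, with a bound of -3.54 on the log2 scale. The median of all genes, -3.74, is taken over fitted values and not over bounds, so the 2 are unlike measures. The bound does not place the gene below that median.

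The family was far from uniform. The highest group mean lay in heterografted stocks of 7 DAG for 12 of the 35 genes and in heterografted scions of 7 DAG for 8. The same shares over all genes were not computed, so these counts describe the members and set them apart from no other genes. Solyc07g066220 was the steadiest member, with group means between 86.5 and 108 CPM, a 1.25-fold range over all groups outside the shallow stocks. At 7 DAG it held 98.7, 94.5, 107, 102 and 78.2 CPM in heterografted scions, 144, 90.3, 70.0 and 108 CPM in heterografted stocks and 82.7, 90.3, 100.1 and 89.2 CPM in ungrafted stems, and these groups overlapped. Its log2 fold change was 0.05 (SE 0.16, edgeR adjusted p = 0.885) in heterografted scions and 0.18 (SE 0.17, edgeR adjusted p = 0.449) in heterografted stocks. Solyc03g104810 and Solyc12g006170 followed, with 1.96-fold and 2.14-fold ranges of their group means, and these genes were picked after their values were seen.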

How the data were processed

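RNA was measured with 3' end libraries (QuantSeq FWD). Per the study's methods, the authors trimmed reads, aligned them with STAR in 2 passes to the ITAG4 tomato genome, counted genes through StringTie and removed outlying libraries of low count, and they deposited raw counts per gene. The submitters' notes name FastQC 0.12.1, STAR 2.7.10b and SAMtools 1.18.

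Genes with a mean of at least 10 counts and with 0 in under 75% of the tomato libraries were kept. edgeR 4.0.16 (R 4.3.3) fitted the quasi-likelihood model with TMM scaling to all tomato groups of a time point, and time effects came from 1 fit of all 61 libraries. Benjamini-Hochberg adjustment ran over the 12176 genes, and a call needed an adjusted p under 0.05 and a log2 fold change beyond 1.5. The SE is the log2 fold change divided by the square root of F. CPM (counts per 1000000) values were computed here with TMM factors over the 55 deeper libraries. The method was tested on simulated data.

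Named per comparison were up to 5 called members with the largest rise and up to 5 with the largest fall, members called between graft types, and Solyc03g095770. The members and lists were chosen with earlier results of these data known. Comparisons over time with ungrafted stems were added after the values were seen. No 2 libraries of a group were identical. Marker lists, promoters and proteins were not analysed here. Alternatives were DESeq2 1.42.0 (the study's tool), its size factors, no filter, a replicate block, no fold threshold, fewer groups in the fit, and libraries left out.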

Additional observations from a re-analysis of the deposited data

Results flagged for a closer look

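A gap test of the highest or lowest library of a group was run on 64 groups of values, and it picked out 4, where chance alone gives about 1 in 20. These were Solyc03g095770 in self-grafted scion replicate 5 of 7 DAG (47.9 CPM), Solyc03g116890 in self-grafted scion replicate 1 of 14 DAG (447 CPM), Solyc03g095770 in ungrafted stem replicate 2 of 21 DAG (71.2 CPM) and the summed WRKY level in self-grafted stock replicate 1 of 14 DAG (1780 CPM).

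The effect of the pepper graft differed between stock and scion at 7 DAG for Solyc02g032950 (log2 difference 2.66) and Solyc08g006320 (1.55). It differed between 21 and 7 DAG in the scion for Solyc01g095630 (-2.27), Solyc06g068460 (-2.36) and Solyc09g014990 (-3.89), calls lost in 9, 14 and 9 of the 17 fits without 1 library. The response relative to ungrafted stems differed from that of 7 DAG, always toward lower values, for 8 WRKY genes in heterografted scions of 14 DAG, 4 in self-grafted scions of 14 DAG, 22 in heterografted scions of 21 DAG and 4 in self-grafted scions of 21 DAG.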

How the results depend on the processing

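Counts of called WRKY genes moved by more than 1.5 times under these settings, and the cause was not tested. The counts of this section show only how stable a count is. Apart from those of DESeq2's Wald test, the shares of all genes called are not given beside them. In DESeq2's Wald test they were 9 in self-grafted stocks (3% of all genes called) and 14 in self-grafted scions (3.54%) against ungrafted stems of 7 DAG. They were 6 in heterografted against self-grafted stocks (12.4%) and 1 in heterografted against self-grafted scions of 7 DAG (3.51%). They were 1 in self-grafted stocks of 21 DAG (1.08%) and 9 for the self-grafted response of 21 minus 7 DAG (3.76%). With DESeq2's size factors they were 2 for ungrafted stems of 14 against 7 DAG, 1 for the heterograft effect of 21 minus 7 DAG, 5 for the heterografted response of 14 minus 7 DAG and 7 for the self-grafted response of 21 minus 7 DAG. Without the filter the heterograft effect of 21 minus 7 DAG had 1, and without the shallow stocks the ungrafted stems of 14 against 7 DAG had 8. With no fold threshold there were 1, 8 and 8 for heterografted against self-grafted scions of 7 and 14 DAG and heterografted scions against ungrafted stems of 21 DAG.

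When the fit held nothing but the compared groups there were 2 and 1 calls in self-grafted scions and stocks of 7 DAG and again 2 and 1 at 14 DAG, 1 for the heterograft effect of 14 minus 7 DAG, 1 and 0 for the self-grafted response of 14 and 21 minus 7 DAG and 10 for ungrafted stems of 21 against 7 DAG. Over 22 pairs of groups same-numbered libraries had correlations between -0.227 and 0.241. Same-numbered scion and stock of a self-graft may come from the same plant, which the labels do not state. For these the mean correlation was -0.011, 0.129 and 0.069 at 7, 14 and 21 DAG, against 0.006, -0.031 and -0.017 for other numbers. Whether plants were paired was not settled by these values. With the replicate block the counts were 5 in self-grafted scions of 7 DAG, 1 in self-grafted stocks and 2 in heterografted against self-grafted scions of 14 DAG, 1 in heterografted scions of 21 DAG, 1 for the heterograft effect of 21 minus 7 DAG, 5 and 13 for the heterografted response of 14 and 21 minus 7 DAG, 2 for the self-grafted response of 21 minus 7 DAG, and 1 and 3 for ungrafted stems of 14 and 21 against 7 DAG. The block moved 10 of 28 counts and ended the call in 32 of 109 named results, which include results of Solyc03g095770 that were not called.

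Leaving out 1 library gave 3 to 13 calls in self-grafted scions and 1 to 4 in self-grafted stocks of 7 DAG, 0 to 2 in heterografted against self-grafted scions and 1 to 3 for the stock minus scion effect. It gave 1 to 4 in self-grafted stocks of 14 DAG, 1 to 3 in heterografted scions of 21 DAG, 0 to 6 for the heterograft effect of 21 minus 7 DAG and 3 to 7 for ungrafted stems of 14 against 7 DAG. The heterografted response gave 5 to 8 (14 minus 7 DAG) and 8 to 22 (21 minus 7 DAG), and the self-grafted one 1 to 5 and 0 to 5. The heterografted calls against ungrafted stems of 7 DAG stayed at 15 to 18 in scions and 17 to 19 in stocks. The change of the heterograft effect on Solyc03g095770 from 7 to 14 DAG, which passed in none, turned to -1.66 without self-grafted scion replicate 5 and ranged up to 0.73.

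DESeq2's size factors with the shallow stocks in the fit moved the median of all genes in heterografted scions of 14 DAG to 0.58 against ungrafted stems, from the 0.11 of TMM, and to 0.45 against self-grafted scions, from 0.04. The share of all calls that were higher was 78.7% and 69.9% there, against 53.1% and 38.9% with TMM, and the WRKY calls were 11 higher and 1 lower against ungrafted stems and 3 higher and 0 lower against self-grafted scions. With the shallow stocks left out, a setting chosen after seeing the data, size factors kept all 18 counts within 1.5 times. No call was ended among 64 named results. Limits are the depth of the shallow stocks, the listed zeros, 3 to 5 libraries a group, and SEs that are approximate. Another is the RNA degradation that the study reports in stocks of incompatible grafts.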
